A study of Mus musculus with 6 samples.

Results

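Chemokines and their receptors were followed in brown adipose tissue, the fat depot of small mammals that burns fuel to make heat. The genes were chosen by name: every protein-coding row of the deposited count table whose symbol is that of a numbered chemokine (Ccl, Cxcl, Cx3cl, Xcl) or of a numbered receptor (Ccr, Cxcr, Cx3cr, Ackr). This took 58 of the 45777 genes in the table. A further symbol match, Cxcl11, is entered there as a transcribed pseudogene and was left out. The Rb2 group held 3 libraries (numbered 1, 3 and 4 in the table) from male wild-type C57Bl6/J mice given ginsenoside Rb2, a ginseng saponin, by intraperitoneal injection for 2 weeks. The PBS group held 3 libraries (1, 2 and 4) from mice of the same strain, sex and genotype that received the saline vehicle on the same schedule. All mice were injected, and the labels give neither the dose nor the age of the animals. Each library is whole tissue of 1 mouse, and mRNA was sequenced after poly(A) selection.

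Chemokines are small secreted proteins that bind to matrix sugars and guide cells along their gradients. They are sorted by the spacing of their first cysteines into the CC, CXC, CX3C and C classes. Most receptors signal through inhibitory G proteins and make leukocytes crawl, whereas the atypical receptors (Ackr) do not couple to G proteins and mainly bind and remove chemokines. In fat, chemokines are known for holding and recruiting macrophages, lymphocytes and eosinophils and for acting on vessels and stromal cells.

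Library totals ran from 83642183 to 92666780 counts, and Pearson r of log2 CPM across genes, between pairs of libraries, from 0.92 to 0.979. CPM here is the read count scaled to a common library total, after TMM normalisation for differences in composition. Brown adipocyte markers were abundant in all libraries, with 10 of 10 detected and summed levels of 12400 to 16600 CPM in Rb2 and 15200 to 16400 CPM in PBS. Skeletal muscle markers summed to 50.4, 482 and 312 CPM in Rb2 1, 3 and 4, and to 2380, 7150 and 67.1 CPM in PBS 1, 2 and 4, so PBS 1 and PBS 2 stood apart with the most muscle transcripts.

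Of the 58 genes, 52 were detected with any count and 38 passed the expression filter (a count of about 10 or more in enough libraries) and were tested. Brown fat of Rb2-treated mice had less mRNA of 5 of these 38 genes: the chemokines Cxcl12, Cx3cl1, Cxcl16 and Ccl24 and the atypical receptor Ackr3. A single tested member rose, and 32 did not pass an adjusted p of 0.05 in edgeR's quasi-likelihood test with Benjamini-Hochberg adjustment over all 16707 genes tested. Across all of these genes 10.4% were called, 5.33% higher and 5.11% lower after Rb2. Of the 38 members 15.8% were called, 2.63% higher and 13.2% lower. The median log2 fold change (Rb2 over PBS) was -0.12 over the 38 members and -0.01 over all genes tested. The groups were separated without overlap in 6 members, 1 with Rb2 above PBS and 5 with Rb2 below it. Those 6 were the called genes. Over all genes tested, 35.8% were separated in this way.

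**Figure D1:**
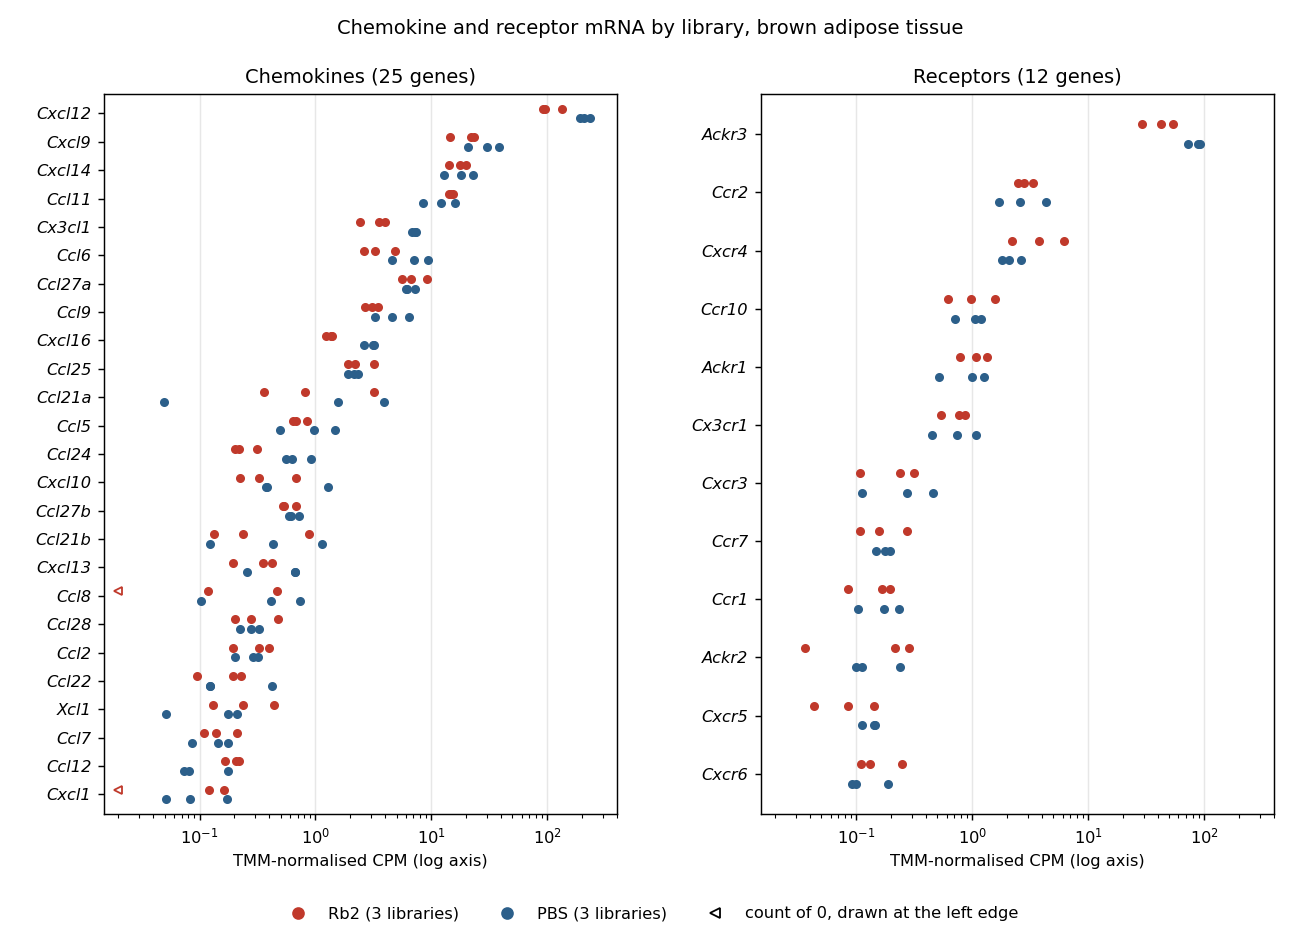
TMM-normalised CPM (log axis) of 25 tested chemokines and 12 tested receptors, ordered by their mean in PBS, with each point 1 library, Rb2 in red above PBS in blue. Cxcl12 and Ackr3 lie at the top of their panels, and their Rb2 points (91.7 to 135 and 28.9 to 53.6 CPM) lie below their PBS points (193 to 234 and 72.0 to 92.9 CPM).

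Cxcl12 (gene 20315, chromosome 6, 117168535 to 117181368 in GRCm38.p6) was the most abundant member. It encodes the chemokine that holds CXCR4-bearing cells in bone marrow and stroma and is made by vessel and stromal cells. Its level was 91.7, 96.2 and 135 CPM in Rb2 1, 3 and 4, against 234, 209 and 193 CPM in PBS 1, 2 and 4. All 3 Rb2 libraries were below all 3 PBS libraries, with Rb2 4 nearest to the PBS values. Means were 107 ± 23.5 CPM with Rb2 and 212 ± 20.4 CPM with PBS (SD, n = 3 each). The log2 fold change was -0.98 ± 0.18 (SE), with an adjusted p of 0.0126 from edgeR. Cxcl12 made up 54.4% to 61.7% of all chemokine counts in the Rb2 libraries and 66.7% to 69.7% in the PBS libraries.

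Ackr3 (gene 12778, chromosome 1, 90203980 to 90215724), also known as CXCR7, encodes the atypical receptor that takes up CXCL12. It had 53.6, 28.9 and 42.2 CPM in Rb2 1, 3 and 4, and 88.4, 72.0 and 92.9 CPM in PBS 1, 2 and 4. The groups did not overlap, and Rb2 3 was the lowest library. Ackr3 averaged 41.6 ± 12.4 CPM with Rb2 and 84.4 ± 11 CPM with PBS (log2 fold change -1.02 ± 0.22 SE, edgeR adjusted p = 0.0245). It supplied 71.5% to 85.1% of the receptor counts in Rb2 and 89.2% to 90.9% in PBS.

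Cxcr4 (gene 12767, chromosome 1, 128588199 to 128592299), the signalling receptor for CXCL12 on leukocytes and progenitors, did not follow Ackr3. Its level was 2.22, 3.76 and 6.13 CPM in Rb2 1, 3 and 4 and 2.64, 1.8 and 2.09 CPM in PBS 1, 2 and 4. Rb2 3 and Rb2 4 were above all PBS libraries, while Rb2 1 lay among them. The difference missed the threshold in edgeR (log2 fold change 0.89 ± 0.35 SE, adjusted p = 0.128) and passed it in DESeq2's Wald test (0.89, adjusted p = 0.0487). Over all other alternatives the adjusted p of Cxcr4 ran from 0.0659 to 0.59. There were 24.2, 7.69 and 6.89 Ackr3 counts for each Cxcr4 count in Rb2 1, 3 and 4, against 33.5, 40 and 44.4 in PBS 1, 2 and 4. Every Rb2 ratio was below every PBS ratio, a description of a pair picked after its values were seen.

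Promoter windows are shown for the called genes Cxcl12, Ackr3 and Cx3cl1, so that their letters can be compared, and for Cxcr4 as the uncalled receptor of CXCL12. They come from RefSeq (GRCm38.p6), whose table has a window for 28 of the 38 tested members and none for the fallen genes Cxcl16 and Ccl24. Each window runs 5′ to 3′ on the gene's strand, from 250 bases before to 50 bases after the start. Capitals mark matches on either strand to GGGCGG (the GC box), TATAAA (the TATA box), CACGTG (an E-box) or an NF-kB-type motif (GGG and TTTCC with any 2 bases between them).
Cxcl12, chr6:117168285-117168584, plus strand: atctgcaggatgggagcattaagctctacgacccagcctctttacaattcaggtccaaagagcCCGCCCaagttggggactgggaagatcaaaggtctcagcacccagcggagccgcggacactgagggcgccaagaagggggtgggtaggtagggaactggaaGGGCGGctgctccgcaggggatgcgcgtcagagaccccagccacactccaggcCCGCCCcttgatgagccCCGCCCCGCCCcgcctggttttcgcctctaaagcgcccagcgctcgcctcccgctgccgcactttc
Ackr3, chr1:90203730-90204029, plus strand: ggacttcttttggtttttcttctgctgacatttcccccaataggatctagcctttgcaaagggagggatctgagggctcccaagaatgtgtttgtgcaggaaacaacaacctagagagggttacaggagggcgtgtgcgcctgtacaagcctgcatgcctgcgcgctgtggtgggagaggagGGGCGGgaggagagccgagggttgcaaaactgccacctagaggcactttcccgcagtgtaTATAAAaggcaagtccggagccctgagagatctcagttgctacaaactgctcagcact
Cx3cl1, chr8:94771930-94772229, plus strand: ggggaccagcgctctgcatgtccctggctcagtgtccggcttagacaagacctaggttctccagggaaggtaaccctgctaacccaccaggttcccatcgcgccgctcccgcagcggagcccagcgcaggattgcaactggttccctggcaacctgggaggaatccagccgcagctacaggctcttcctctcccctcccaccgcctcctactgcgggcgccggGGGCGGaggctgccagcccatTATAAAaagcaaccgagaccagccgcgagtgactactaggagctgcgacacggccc
Cxcr4, chr1:128592250-128592549, minus strand: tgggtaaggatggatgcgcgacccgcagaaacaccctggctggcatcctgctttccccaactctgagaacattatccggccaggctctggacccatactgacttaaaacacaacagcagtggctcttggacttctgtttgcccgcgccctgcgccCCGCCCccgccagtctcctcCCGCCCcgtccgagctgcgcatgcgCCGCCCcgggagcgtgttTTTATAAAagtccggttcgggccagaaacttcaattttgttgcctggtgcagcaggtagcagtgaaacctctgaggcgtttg

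The Cxcl12 window held 5 GC box matches, of which 2 overlap each other, and no TATA box letters. Ackr3 and Cx3cl1 each held 1 GC box and 1 TATA box match. The TATA box match started 8 bases before the annotated start in Ackr3 and 6 bases before it in Cx3cl1. Cxcr4 held 3 GC boxes and 2 overlapping TATA box matches on opposite strands, starting 32 and 30 bases before the start. None of these 4 windows held the E-box or NF-kB-type letters. Of all 32851 windows in the table, 35.7% held the GC box, 13.6% the TATA box, 7.15% the E-box and 1.63% the NF-kB-type motif. These are matches of letters and not measured binding sites.

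In the class formed here of Cx3cl1 and the CXC ligands taken as homeostatic (made without infection), 3 of 5 tested members fell (60%) and none rose. The class was drawn up by hand, so its share depends on which genes were placed in it and is a description. Over all genes tested, 5.11% fell and 5.33% rose. The CC and C ligands of lymphocytes and epithelia were counted as a separate class, in which none of 8 tested members passed. Besides Cxcl12 the fallen genes here were both of the transmembrane chemokines, which serve as adhesion molecules until they are shed. Cx3cl1, or fractalkine (gene 20312, chromosome 8, 94772180 to 94782427), had 3.53, 2.44 and 3.98 CPM in Rb2 1, 3 and 4 and 6.84, 7.33 and 7.18 CPM in PBS 1, 2 and 4. The PBS libraries lay close together and the highest Rb2 library stayed below all of them. Its log2 fold change was -1.1 ± 0.2 (SE; edgeR adjusted p = 0.0144).

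Cxcl16 (gene 66102, chromosome 11, 70454389 to 70459984), a ligand for CXCR6 and a scavenger receptor for oxidised lipoprotein on macrophages, had 1.24, 1.37 and 1.38 CPM in Rb2 and 3.19, 3.14 and 2.6 CPM in PBS. The spread within the Rb2 group was small (1.33 ± 0.0792 CPM with Rb2, 2.98 ± 0.332 CPM with PBS; SD, n = 3 each). The log2 fold change was -1.16 ± 0.21 (SE), with an edgeR adjusted p of 0.0138. Zmynd15 lies on the opposite strand and shares 19% of the 50-base windows of the longest Cxcl16 transcript. It had 17 to 32 counts in Rb2 and 26 to 46 counts in PBS, against 105 to 128 and 254 to 304 counts of Cxcl16.

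Cxcl13, the B cell attractant, and Cxcl14, which is expressed in many epithelia and in brown fat, were the other tested members of this class. Cxcl14 averaged 17.3 ± 2.95 CPM with Rb2 and 17.8 ± 5.02 CPM with PBS (log2 fold change -0.04 ± 0.22 SE, edgeR adjusted p = 0.91). Its groups overlapped widely, at 14.1 to 20 CPM in Rb2 and 12.8 to 22.8 CPM in PBS. Cxcl13 had 0.194 to 0.421 CPM in Rb2 and 0.255 to 0.666 CPM in PBS, with an edgeR adjusted p of 0.348.

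**Figure D2:**
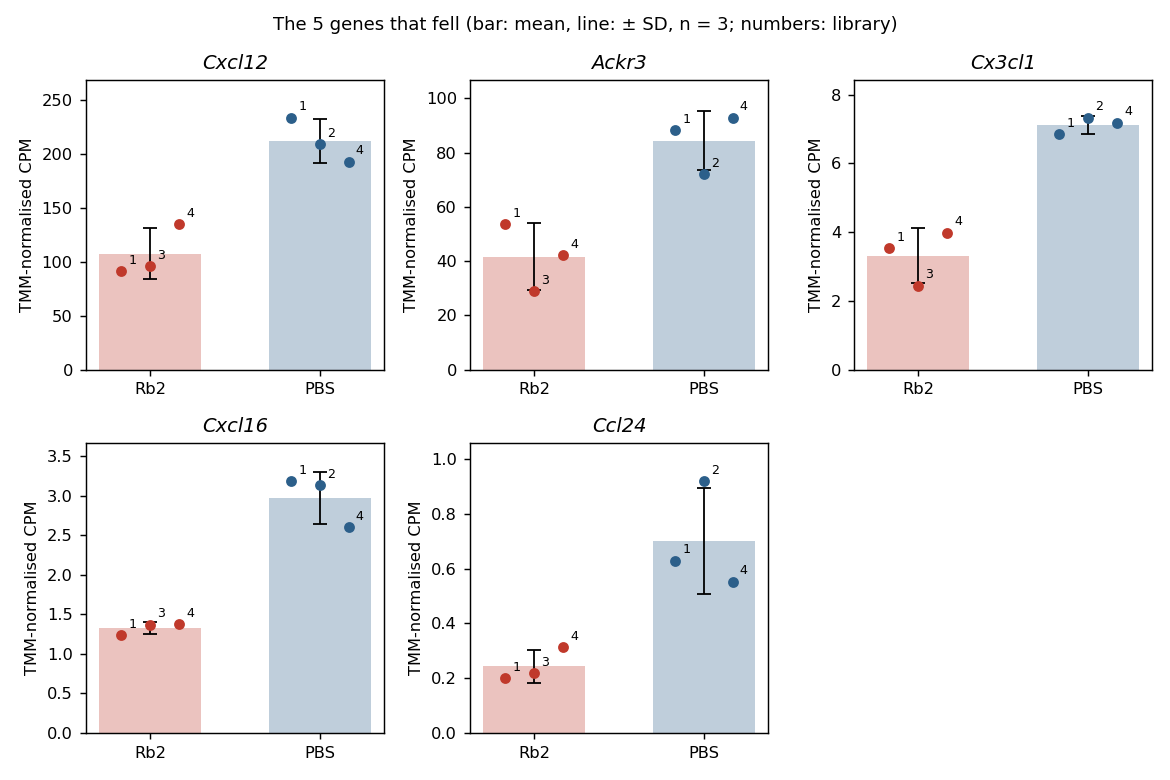
TMM-normalised CPM of the 5 members that fell, by group (bars, means; lines, ± SD; points, libraries with their numbers; n = 3 each). All Rb2 points lie below all PBS points in each of the 5 genes.

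The receptors of the transmembrane ligands gave no call. Cx3cr1, the fractalkine receptor of monocytes and resident macrophages, had 0.54 to 0.872 CPM in Rb2 and 0.445 to 1.08 CPM in PBS (log2 fold change -0.06 ± 0.38 SE, edgeR adjusted p = 0.935). Cxcr6, which marks resident T and NKT cells, had 9 to 21 counts in Rb2 and 8 to 18 counts in PBS. Counts this low could show only large differences.

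Of the CC chemokines that act on monocytes, macrophages and eosinophils, 9 of 12 were tested and 1 fell. This single call is 11.1% of the class, against 5.11% lower over all genes tested. The fallen gene was Ccl24, or eotaxin-2 (gene 56221, chromosome 5, 135569935 to 135573123), an eosinophil attractant made by macrophages. It had 17, 18 and 29 counts (0.201, 0.218 and 0.313 CPM) in Rb2 1, 3 and 4, and 51, 89 and 54 counts (0.629, 0.92 and 0.552 CPM) in PBS 1, 2 and 4. The groups did not overlap, and PBS 2 was the highest library. Its log2 fold change of -1.51 ± 0.38 (SE; edgeR adjusted p = 0.036) was the most negative of the 38 members.

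The related eotaxin Ccl11, made by stromal cells, was much more abundant and did not pass the threshold. It had 14.8, 14.3 and 15.5 CPM in Rb2 and 15.9, 8.54 and 12.1 CPM in PBS (log2 fold change 0.29 ± 0.2 SE, edgeR adjusted p = 0.371). The Rb2 values lay close together inside the range of the PBS values. Ccr3, the eotaxin receptor of eosinophils, had 4 counts in Rb2 4 and 0 in the other 5 libraries. A count of 0 allows up to 3 counts, or 0.0307 to 0.037 CPM by library, for counting error only.

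Ccl6 and Ccl9, rodent chemokines of myeloid cells that bind CCR1, were lower on average with Rb2, and neither passed the threshold. Ccl6 had 3.29, 2.62 and 4.82 CPM in Rb2 1, 3 and 4 and 9.33, 7.09 and 4.54 CPM in PBS 1, 2 and 4 (log2 fold change -0.96 ± 0.31 SE, edgeR adjusted p = 0.0764). Only PBS 4 overlapped the Rb2 range. DESeq2 called Ccl6 (adjusted p = 0.0103), and edgeR did so without Rb2 4 (adjusted p = 0.0417) or without PBS 4 (adjusted p = 0.0332), within a range of 0.0103 to 0.731 over all alternatives. Ccl9 had 2.7 to 3.45 CPM in Rb2 and 3.23 to 6.42 CPM in PBS (edgeR adjusted p = 0.134).

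The acute inflammatory chemokines had low counts. Ccl2, the main monocyte attractant, had 34, 16 and 30 counts in Rb2 and 26, 28 and 20 counts in PBS, which overlap (log2 fold change 0.18 ± 0.43 SE, edgeR adjusted p = 0.813). Ccl7, Ccl8 and Ccl12, its neighbours on chromosome 11, had at most 43 counts in Rb2 and 60 counts in PBS in any library, and none passed the threshold. Ccl5, a T cell and macrophage product, was more abundant, with 0.637 to 0.85 CPM in Rb2 and 0.491 to 1.47 CPM in PBS (edgeR adjusted p = 0.486). Ccl3 and Ccl4, made by activated macrophages, had at most 10 counts in Rb2 and 14 counts in PBS, and were not tested.

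Of the CXC chemokines that draw neutrophils, Cxcl1 was the only one tested, with 0, 10 and 15 counts in Rb2 1, 3 and 4 and 14, 8 and 5 counts in PBS 1, 2 and 4. These overlap (edgeR adjusted p = 0.965). Cxcl2 and Cxcl5 had at most 4 counts in any library and Cxcl3 had none. Their receptors Cxcr1 and Cxcr2 had at most 10 counts in Rb2 and 11 counts in PBS.

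Cxcl9 and Cxcl10, interferon-induced ligands of the T cell receptor CXCR3, lie next to each other on chromosome 5, 18558 bases apart. Cxcl9 was among the more abundant chemokines, at 14.6, 22.1 and 23.2 CPM in Rb2 1, 3 and 4 and 38.3, 30.1 and 20.5 CPM in PBS 1, 2 and 4. PBS 4 lay within the Rb2 range, and the difference did not pass (log2 fold change -0.57 ± 0.26 SE, edgeR adjusted p = 0.179). Without PBS 1 and PBS 2, with PBS 4 as the only PBS library, the log2 fold change was -0.04. Cxcl10 had 0.224 to 0.678 CPM in Rb2 and 0.378 to 1.27 CPM in PBS, and PBS 2 held the highest value (edgeR adjusted p = 0.438). Cxcr3 had 10 to 26 counts in Rb2 and 11 to 44 counts in PBS.

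None of the 8 tested chemokines of lymphocytes and epithelia passed the threshold. Ccl27a, a ligand of CCR10, had 5.56 to 9.16 CPM in Rb2 and 6.02 to 7.2 CPM in PBS (edgeR adjusted p = 0.647). Ccl27b had 45 to 56 counts in Rb2 and 48 to 71 counts in PBS (edgeR adjusted p = 0.76). Ccl25, a thymus and gut chemokine, had 1.89 to 3.22 CPM in Rb2 and 1.91 to 2.33 CPM in PBS, although its receptor gene Ccr9 had no count in any library. Ccl28, Ccl22 and Xcl1 had 8 to 44 counts per library in Rb2 and 5 to 34 counts in PBS.

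Ccl21a, which guides dendritic cells and T cells into lymphatic vessels and lymph nodes, varied widely between libraries of the same group. It had 69, 30 and 293 counts in Rb2 1, 3 and 4 and 4, 150 and 381 counts in PBS 1, 2 and 4. Ccl21b showed the same order within each group, with 20, 11 and 81 counts in Rb2 and 10, 42 and 112 counts in PBS. Both genes, and Ccl27a, Ccl27b and Ccl19, have near-identical copies on chromosome 4. The share of 50-base windows of the longest transcript found in another gene was 71.6% for Ccl21a, 100% for Ccl21b, 69.2% for Ccl27a, 98.1% for Ccl27b and 59.1% for Ccl19. The split of reads between such copies is uncertain, because the counting method is not given in the sources used here. Ccr7, the receptor for Ccl19 and Ccl21, had 10 to 23 counts in Rb2 and 12 to 19 counts in PBS.

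None of the CC receptors described here passed the threshold. Ccr2, the receptor of inflammatory monocytes, averaged 2.87 ± 0.46 CPM with Rb2 and 2.88 ± 1.36 CPM with PBS (SD, n = 3 each; edgeR adjusted p = 0.997). Its highest and lowest libraries were both PBS ones, at 4.36 CPM in PBS 1 and 1.71 CPM in PBS 2. Ccr1 had 7 to 18 counts in Rb2 and 10 to 19 counts in PBS, and Ccr10 had 52 to 144 counts in Rb2 and 57 to 117 counts in PBS. Among the atypical receptors, Ackr1, the chemokine-binding Duffy antigen of venules and red cells, had 0.779 to 1.34 CPM in Rb2 and 0.518 to 1.26 CPM in PBS (edgeR adjusted p = 0.759). Cadm3, which overlaps Ackr1 on the same strand, had 193 to 378 counts in Rb2 and 435 to 768 counts in PBS. Ackr2, which clears inflammatory CC chemokines, had 3 to 24 counts in Rb2 and 8 to 23 counts in PBS. Cxcr5, the CXCL13 receptor of B cells, had 4 to 12 counts in Rb2 and 9 to 14 counts in PBS.

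**Figure D3:**
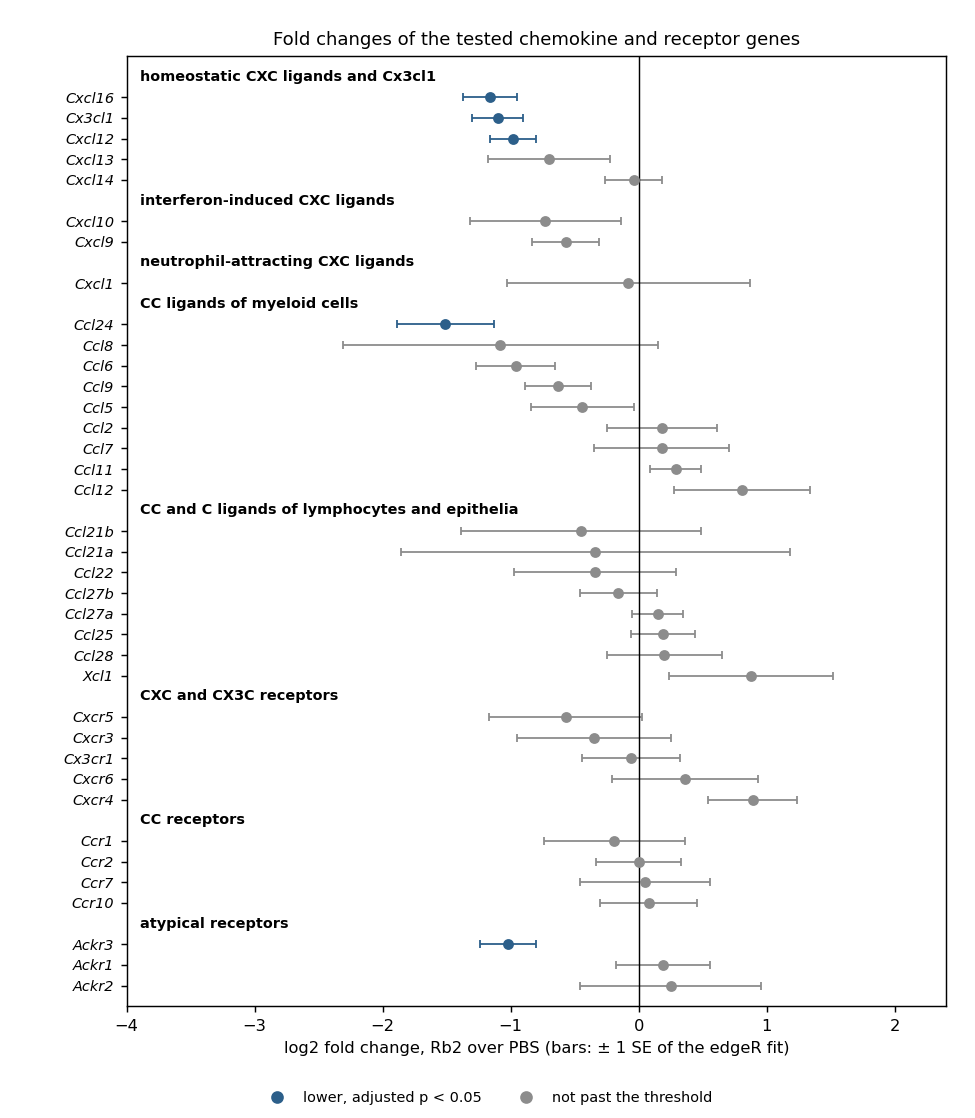
Log2 fold changes (Rb2 over PBS) of 37 tested members by class, with ± 1 SE of the edgeR fit. Blue points fell and grey points did not pass the threshold. The values shown span -1.51 (Ccl24) to 0.89 (Cxcr4).

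The 14 genes with a count that stayed under the expression filter had between 0 and 14 counts in a library. They were Ccl1, Ccl3, Ccl4, Ccl17, Ccl19, Cxcl2, Cxcl5, Cxcl15, Ccr3, Ccr4, Ccr6, Cxcr1, Cxcr2 and Ackr4. The 6 genes at 0 in all libraries were Ccl20, Ccl26, Cxcl3, Cxcl17, Ccr8 and Ccr9. At this depth their transcripts were not detectable in either group.

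Levels were also divided by the length of the longest GENCODE transcript, for a rough comparison of genes. Which transcripts were expressed was not measured, and a shorter one would give a higher value. By this measure Cxcl12 was highest in both groups, at 19.1 ± 4.18 CPM per kilobase with Rb2 and 37.7 ± 3.62 with PBS (SD, n = 3 each). Ackr3 was at 13.6 ± 4.04 with Rb2 and 27.5 ± 3.59 with PBS. Ccl11 was at 13.7 ± 0.56 with Rb2 and 11.3 ± 3.4 with PBS. The levels of Ackr3 and Ccl11 were thus within their spread of each other in the Rb2 libraries (9.42 to 17.5 for Ackr3, 13.2 to 14.3 for Ccl11). In PBS libraries every Ackr3 value (23.5 to 30.3) was above every Ccl11 value (7.89 to 14.7). Cxcl14, Ccl27a and Cxcl9 came next in Rb2, at 9.47, 7.17 and 6.9 with Rb2 and 9.77, 6.47 and 10.3 with PBS, and overlapped one another within each group; in PBS they also overlapped Ccl11, apart from Ccl27a. Every other tested member averaged at most 2.48 with Rb2 and 4.85 with PBS (Ccl6 in both).

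The fallen genes are scattered over the genome. The 58 members lie on 11 chromosomes, with 14 on chromosome 11, 12 on chromosome 9 and 10 on chromosome 5. The 5 fallen genes lie on chromosomes 1, 5, 6, 8 and 11, so no pair of them shares a chromosome. Cx3cl1 lies between Ccl22, which ends 20791 bases before it, and Ccl17, which begins 26952 bases after it. Ccl22 had 8 to 19 counts in Rb2 and 12 to 34 counts in PBS (edgeR adjusted p = 0.749), and Ccl17 had at most 4 counts in any library. Ccl24 lies 6365 bases from Ccl26, which had no counts.

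Markers of the cell types that could supply these transcripts were summed in each library, from 16 lists. In whole tissue, fewer cells of a type and less RNA per cell cannot be told apart. The sum was lower in every Rb2 library than in every PBS library for 7 lists (macrophage, monocyte, dendritic cell, B cell, endothelial, mural and erythroid) and higher for 1 (mesothelial). It overlapped for the other 8 (neutrophil, T cell, NK cell, mast cell, lymphatic endothelial, fibroblast, skeletal muscle and brown adipocyte). Separation was common in this comparison: of all single genes tested, 35.8% had groups without overlap. That share is for genes and not for sums over lists. The monocyte, dendritic cell, neutrophil and T cell lists each include 1 chemokine receptor. For the counts of fallen markers below, the share over all genes tested was 5.11%. Endothelial markers (11 of 11 detected) summed to 876 to 1310 CPM in Rb2 and 1580 to 1780 CPM in PBS, and 5 of 11 fell. Mural markers (8 of 8 detected) summed to 707 to 780 CPM in Rb2 and 860 to 882 CPM in PBS, and 1 of 8 fell. Lymphatic endothelial markers summed to 12 to 20 CPM in Rb2 and 19.8 to 27.8 CPM in PBS, and 1 of 6 fell. Erythroid markers summed to 479 to 794 CPM in Rb2 and 1040 to 1450 CPM in PBS, and 4 of 7 fell.

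Macrophage markers (12 of 12 detected) summed to 91.2 to 122 CPM in Rb2 and 131 to 168 CPM in PBS, and 4 of 12 fell. Fibroblast and progenitor markers summed to 587 to 863 CPM in Rb2 and 854 to 1120 CPM in PBS, and none of the 10 passed the threshold. Across all genes tested 5.11% fell. Monocyte markers summed to 19.4 to 56.1 CPM in Rb2 and 59.1 to 75 CPM in PBS, dendritic cell markers to 18 to 26.7 CPM in Rb2 and 31.2 to 33.8 CPM in PBS, and B cell markers to 5.71 to 6.98 CPM in Rb2 and 8.93 to 24.1 CPM in PBS. None of the genes in these 3 lists passed the threshold.

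T cell markers summed to 2.58 to 2.91 CPM in Rb2 and 2.68 to 4.08 CPM in PBS, and NK cell markers to 1.82 to 2.29 CPM in Rb2 and 1.29 to 3.3 CPM in PBS. Neutrophil markers were low, at 1.56 to 2.64 CPM in Rb2 and 2.32 to 4.01 CPM in PBS, with Ly6g and Camp at 0 in all libraries. Mast cell markers summed to 7.71 to 13.3 CPM in Rb2 and 5.61 to 9.09 CPM in PBS, with Fcer1a at 0. None of the genes of these 4 lists passed either. Mesothelial markers summed to 2.86 to 4.36 CPM in Rb2 and 1.55 to 2.35 CPM in PBS, where Msln and Wt1 were at 0 and the 1 tested gene rose. Of the 10 brown adipocyte markers 1 rose and 2 fell, and no skeletal muscle marker passed. The shares over all genes tested were 5.33% higher and 5.11% lower.

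Set against these sums, the fallen genes differed in how far they followed the markers. Cxcl12 was at 10.5%, 9.52% and 10.3% of the endothelial sum in Rb2 1, 3 and 4 and at 14.8%, 11.8% and 11.4% in PBS 1, 2 and 4. Against the fibroblast sum it was at 15.6% in each Rb2 library and at 20.8%, 18.9% and 22.6% in PBS 1, 2 and 4. Neither pair of ranges overlapped, although the gaps were smaller than for Cxcl12 itself. Ackr3 overlapped between the groups against both sums. It was at 6.12%, 2.86% and 3.23% of the endothelial sum in Rb2 1, 3 and 4 and at 5.59%, 4.05% and 5.48% in PBS 1, 2 and 4. Both overlaps came from Rb2 1 alone, as Rb2 3 and Rb2 4 were below all PBS libraries against either sum. Cx3cl1 was at 0.241% to 0.403% of the endothelial sum in Rb2 and 0.412% to 0.433% in PBS, and Rb2 1 almost reached the PBS values.

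Cxcl16 was at 1.13% to 1.5% of the macrophage sum in Rb2 and 1.9% to 2.27% in PBS, and Ccl24 at 0.218% to 0.256% in Rb2 and 0.374% to 0.666% in PBS. Neither overlapped. Ccl6 and Ccl9 overlapped between the groups against that sum. The part of these cell types in the results was not tested.

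**Figure D4:**
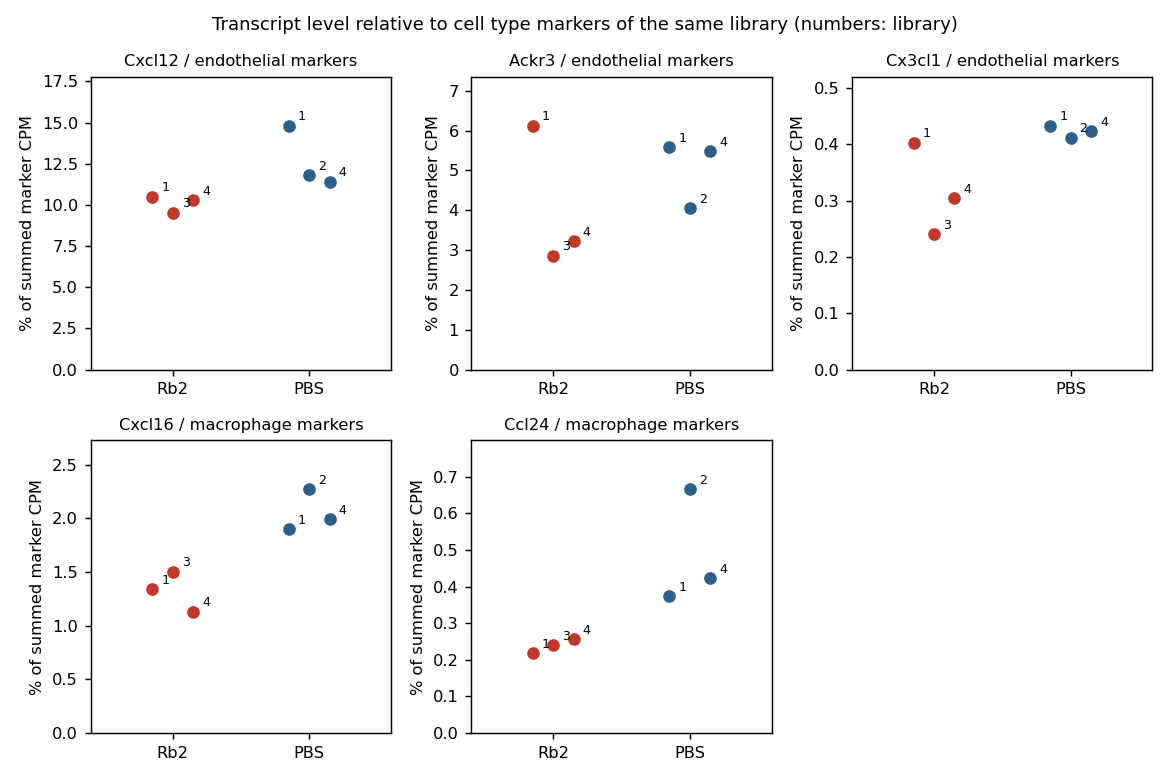
Level of each fallen gene as a percentage of the summed CPM of endothelial (top row) or macrophage markers (bottom row) in the same library, with Rb2 left of PBS and library numbers beside the points. The groups overlap for Ackr3 and are separate for the other 4 genes.

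Further genes of the chemokine system were read from the same test in 4 lists. Among 16 chemokine-related genes outside the naming rule, 2 fell (12.5%, against 5.11% of all genes tested) and none rose. These were Cd74, the invariant chain that also serves as a receptor for the cytokine MIF, at 59.3 to 73.3 CPM in Rb2 and 116 to 165 CPM in PBS (log2 fold change -1.02 ± 0.17 SE, edgeR adjusted p = 0.0101), and Cmtm7 (-0.89). The median of this list was -0.52. The platelet chemokine genes Pf4 (log2 fold change -0.57, edgeR adjusted p = 0.182) and Ppbp (-0.97, edgeR adjusted p = 0.0957) did not pass, nor did Xcr1, the receptor for Xcl1 (0.4, edgeR adjusted p = 0.64).

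Of 36 tested genes of receptor signalling, 3 fell (8.33%, near the 5.11% of all genes tested) and none rose, with a median log2 fold change of -0.25. Elmo1, an adaptor for Rac activation, had 4.72 to 5.94 CPM in Rb2 and 10.2 to 13.5 CPM in PBS (-1.19 ± 0.16 SE, edgeR adjusted p = 0.0059). Prex1, a Rac exchange factor downstream of G protein subunits, fell as well (-0.95, edgeR adjusted p = 0.00984), as did Gnai2, the main inhibitory G protein of leukocytes (-0.51, edgeR adjusted p = 0.0427). No tested G protein beta subunit, arrestin or receptor kinase passed.

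Of 19 tested leukocyte adhesion genes 2 fell and 1 rose (median log2 fold change -0.42). These were 10.5% lower and 5.26% higher, against 5.11% lower and 5.33% higher over all genes tested. Sele, or E-selectin, which cytokines induce on endothelium to slow rolling leukocytes, had 2.77, 1.2 and 2.39 CPM in Rb2 1, 3 and 4 and 0.616, 0.445 and 0.337 CPM in PBS 1, 2 and 4. It rose (2.19 ± 0.38 SE, edgeR adjusted p = 0.0122), whereas Icam1 (-0.81), a ligand of leukocyte integrins, and Esam (-0.9), an endothelial junction protein, fell. In the list of NF-kB and cytokine signalling genes, which drive many inflammatory chemokines, 1 of 32 tested members rose and 1 fell (median -0.02), 3.12% each and below the shares over all genes. The risen gene was Nfkbiz, an inducible NF-kB cofactor (0.94, edgeR adjusted p = 0.0205), and the fallen one Il1r1, the interleukin-1 receptor (-0.78, edgeR adjusted p = 0.0187). The transcripts of Tnf, Il6, Ifng and Il1a were under the filter.

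Each of the 6 calls depended on which libraries entered the test. No member was called without PBS 1 or without PBS 2, where 8 and 7 members had an unadjusted p under 0.05. In the whole table edgeR then called 121 genes higher and 213 lower without PBS 1, and 122 higher and 181 lower without PBS 2, against 890 higher and 853 lower with all 6 libraries. Without Rb2 1 there were 3 lower members (Ackr3, Cxcl12 and Cxcl16) and without Rb2 3 there were 2 (Cx3cl1 and Cxcl16). Without Rb2 4 Ackr3 lost its call and Ccl6 gained one, and without PBS 4 the 5 lower members and Ccl6 were called. No member was called higher in any of the 6 tests that left out a library. With PBS 1 and PBS 2 both left out, PBS 4 was the only PBS library, so only fold changes are given for that fit. The log2 fold changes without PBS 1 and PBS 2 were -0.84 for Cxcl12, -1.16 for Ackr3, -1.11 for Cx3cl1, -0.96 for Cxcl16 and -1.17 for Ccl24.

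Base composition moved with the comparison as well. Among all tested genes with 31% to 45% GC, 10.2% rose and 1.24% fell, and among those with 54.4% to 72.8% GC, 1.78% rose and 11.3% fell. Between these, 6.14% rose and 3.04% fell at 45% to 49.8% GC, and 3.75% rose and 5.73% fell at 49.8% to 54.4% GC. The longest transcripts of the 5 fallen members have 49% to 57.1% GC. Of these members 1 lies at 45% to 49.8%, 3 at 49.8% to 54.4% and 1 in the highest range. After adjustment by a GC and length offset, the 5 fallen genes kept their calls (log2 fold changes -0.92 for Cxcl12, -1.02 for Ackr3, -0.85 for Cx3cl1, -1.13 for Cxcl16 and -1.34 for Ccl24). No member was then called higher. With the muscle markers as a covariate, 4 of the 5 fallen genes kept their calls, and Ccl24 did not pass (-1.31, adjusted p = 0.0935). Ccl24 also missed the threshold in limma-voom (adjusted p = 0.051), and Cxcl12 missed an added 2-fold minimum.

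**Figure D5:**
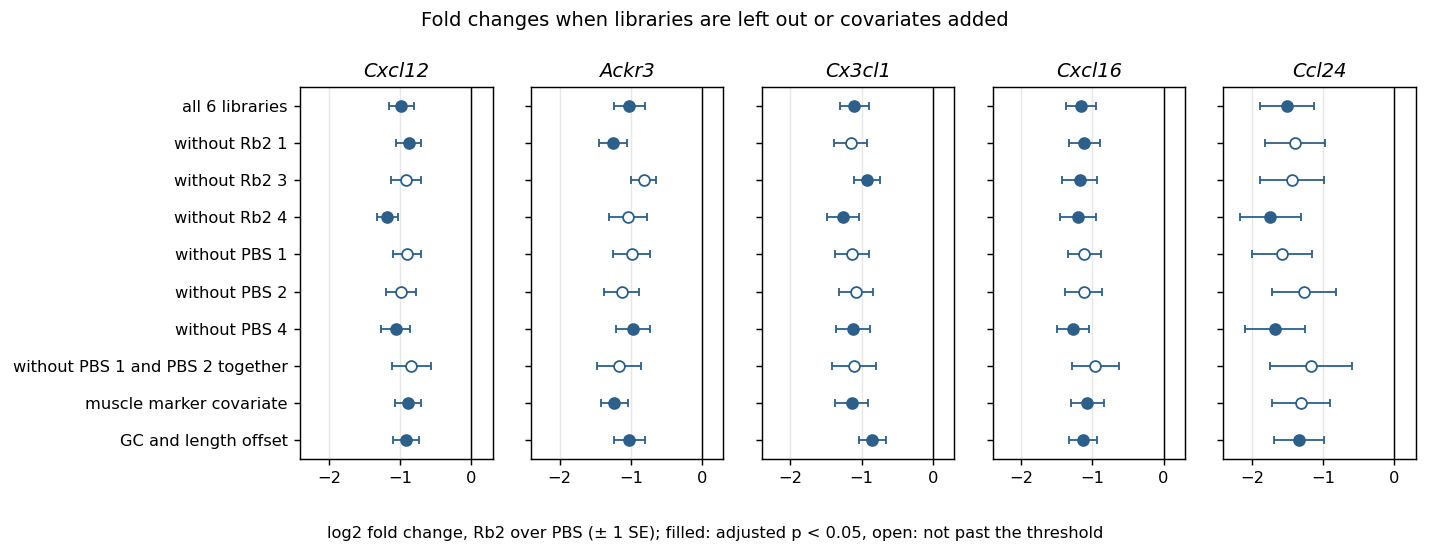
Log2 fold changes (Rb2 over PBS, ± 1 SE) of the 5 fallen genes in the fit with all libraries, with libraries left out, and with a muscle covariate or a GC and length offset; filled points passed an adjusted p of 0.05. All 5 genes keep their sign in every row, and none is filled without PBS 1 or without PBS 2.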

How the data were processed

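Messenger RNA of brown adipose tissue was sequenced in 6 libraries, 3 each from Rb2- and PBS-treated mice, with RNA column purification and a poly(A)-selecting, strand-marking kit per the labels' protocols. The authors deposited 1 table of read counts per gene, in raw whole numbers with replicates kept apart. Trimmomatic, HISAT2, Bowtie2, StringTie and mm10 are named per the submitters' processing notes. The sources used here give neither their roles nor the counter and its strand setting, so a gene and its antisense partner may share reads. Columns were assigned to groups by name; their numbers could not be tied to single samples. The labels do not name a batch. Replicates are separate mice per the series' design text.

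Genes were tested on the counts as deposited with edgeR 4.0.16 (R 4.3.3): TMM factors, the default filter (count minimum 10, about 0.111 CPM; total at least 15), robust quasi-likelihood F test and Benjamini-Hochberg adjustment over 16707 genes. Each SE was taken from the F statistic, as the absolute log2 fold change over its square root. The script was tested on simulated data. Alternatives were other scalings, DESeq2 1.42.0, limma-voom 3.58.1, other filters and thresholds, libraries left out, a block, a muscle covariate and a spline offset (5 degrees of freedom each for GC content and length, known for 94.4% of tested genes). Positions are RefSeq GRCm38.p6, the assembly of mm10. Transcript lengths, GC content and 50-base windows come from GENCODE M21.

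The members, their classes, the 4 related lists and the 16 marker lists were chosen with earlier results of these data known, so counts over them are descriptions. The values of 1 member are not reported here, although it is included in the counts. Of 256 list entries 253 matched by symbol and 3 by synonym. Named genes were the called members, every other member by level or range, and up to 4 called genes per related list; values of uncalled list genes named beyond this were chosen after they were seen.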

Additional observations from a re-analysis of the deposited data

How the results depend on the processing

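Under every alternative tried, the 6 called members kept their sign. Their groups did not overlap, so leaving out libraries could hardly turn it. The changed thresholds reuse the same fold changes. The kept sign is therefore no added support for these calls. The count of lower members, 5 with all libraries, ran from 0 to 6 when 1 library was left out. It was 4 to 6 under the other scalings, tests, filters and thresholds, the covariate and the offset. The count of higher members, 1 with all libraries, was 0 whichever library was left out. It was also 0 with library size alone and with the GC and length offset, and 2 in DESeq2's test, with Cxcr4 added. Library size alone moved the median log2 fold change of all genes from -0.01 to -0.1, and 38.7% of its calls over all genes were higher, against 51.1% with TMM factors; the share was 61.7% with the offset, 42.9% with the 2-fold minimum and 61.5% with the replicate block. The block on the column numbers shared by both groups (1 and 4) used 4 libraries and called 0 members in either direction; the same 4 libraries without the block, an alternative chosen after seeing the data, also called 0. Libraries with the same number did not deviate together (Pearson r across genes -0.197 for number 1 and -0.215 for number 4) and were not treated as pairs. Over all genes, with all libraries 890 were higher and 853 lower. These counts were 1595 and 1558 with DESeq2, 1757 and 1635 at an adjusted p under 0.1, and 242 and 322 with the 2-fold minimum. They were 433 and 459 with the muscle covariate, 492 and 779 with library size alone, and 809 and 502 with the offset. With 1 library left out they ran from 121 to 1200 and from 181 to 1069. They were 32 and 20 with the block and 164 and 132 in the same libraries without it.

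The fold changes of 24 uncalled members changed sign under at least 1 alternative. With 1 library left out their log2 fold changes ran over these ranges: Ackr1 -0.09 to 0.48, Ackr2 -0.23 to 0.75, Ccl2 -0.06 to 0.42, Ccl7 -0.12 to 0.41, Ccl21a -1.63 to 0.82, Ccl21b -1.61 to 0.54, Ccl22 -0.65 to 0.48, Ccl25 -0.06 to 0.35, Ccl27a -0.07 to 0.30, Ccl28 -0.21 to 0.45, Ccr1 -0.46 to 0.10, Ccr2 -0.28 to 0.43, Ccr7 -0.38 to 0.30, Ccr10 -0.32 to 0.35, Cx3cr1 -0.33 to 0.28, Cxcl1 -0.73 to 0.50, Cxcl10 -1.30 to 0.10, Cxcl14 -0.24 to 0.17, Cxcr3 -0.75 to 0.19 and Cxcr6 -0.07 to 0.76. Without PBS 1 and PBS 2 the turned values were 0.49 for Ccl22, -0.01 for Ccl27a, -0.04 for Ccl28, 0.56 for Ccl5, 0.93 for Ccl8, -0.19 for Ccr10, 0.16 for Ccr2, -0.12 for Ccr7, 0.87 for Cxcl1, 0.11 for Cxcl10, 0.34 for Cxcl13 and 0.96 for Cxcr3. With the replicate block they were 1.43 for Ccl21a, 0.20 for Ccl21b, -0.12 for Ccl27a and 0.09 for Ccl5, and in the same libraries without it 0.01, -0.12 and 0.02 for Ccl21a, Ccl27a and Ccl5. The muscle covariate turned Ccl7 (-0.00), Ccl22 (0.03), Ccr2 (0.06), Ccr7 (-0.26), Cxcl1 (0.51) and Cxcr3 (0.13), the offset Ccl25 (-0.04), Ccl27b (0.20), Ccl28 (-0.00) and Cxcl14 (0.21), limma-voom Ackr2 (-0.04), Ccl21a (0.41), Ccr2 (0.12) and Ccr7 (-0.05), no filter Ccr2 (0.00), and library size alone Ccr7 (-0.06). The cause was not tested. Fits on fewer libraries also have less power, and members with few counts are limited by depth.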
